A study of Mus musculus with 18 samples.

Results

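Gpr149, P2ry12, Pla2g4c and Fyb are 4 signalling genes that were taken by their symbols from a table of 55450 mouse genes. They were selected on their values in these libraries, the first 3 for deep decreases after CYC065 and Fyb for its low level in vehicle-treated 4N cells, so those differences are given as a description with no test. The cells were ED1SQ4, a lung cancer line derived from a mouse with transgenic cyclin E in the lung, so that all groups share this transgene and a single line. They received vehicle or the CDK2/9 inhibitor CYC065 at 0.5 µM for 72 hours. After staining of DNA with a fluorescent dye, cells of diploid (2N) and polyploid (4N) DNA content were sorted, and unsorted cells were collected as well, which gave 6 conditions with 3 columns of counts each. A gate on DNA content holds diploid cells that have replicated their DNA beside polyploid cells.

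The 3 columns of each condition carried the same library number in the labels, and over genes with whole counts they differed only by sampling noise (chi-square per degree of freedom between 0.991 and 1.02). They were therefore counted as 1 library per condition and summed, with library totals of 54750127 to 62795460 counts. No comparison between conditions has a replicate check, no p-value is given, and the 95% intervals cover counting error only. Markers of the lung epithelium were sparse, whereas all 6 mesenchymal markers passed 30 counts in a library. Of 8 epithelial markers 1 reached 30 counts (Krt8, 3 to 43), Cdh1 had 9 to 15, Epcam at most 1 and Cldn7 none, and their summed level was 0.436 to 0.801 CPM (counts per 1e6 counts of the scaled library) in vehicle and 0.854 to 1.40 CPM in CYC065 libraries. Of 8 lung lineage markers 2 reached 30 counts, Foxj1 (5 to 39) and Trp63 (0 to 54), both higher in the CYC065 library of each population, and Nkx2-1, Sftpa1 and Scgb1a1 were at 0, with a summed level of 0.0872 to 0.231 CPM in vehicle and 0.768 to 1.73 CPM in CYC065 libraries. The defining haematopoietic gene Ptprc had at most 1 count in any library and the microglial genes Sall1, Siglech and Fcrls were at 0, although Cd68 ranged from 194 to 1389 counts and Tmem119 from 1827 to 3444. Of the 14 haematopoietic markers 3 reached 30 counts, Cd68, Csf1r (38 to 115) and Itga2b (158 to 261). The summed level of the 14 was 7.74 to 8.74 CPM in vehicle libraries and 16.8 to 29.7 CPM in CYC065 libraries. Of the 6 microglial markers 1 reached 30 counts, at 35.0 to 42.1 CPM in vehicle and 27.4 to 63.3 CPM in CYC065 libraries. Of the 7 oocyte markers Gdf9 reached 30 counts (8 to 54), and Zp2, Nlrp5 and Oosp1 were at 0. The part of these markers in the values below was not tested.

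As background, the 4 genes sit at different steps of signalling from the cell surface. Gpr149 is an orphan G protein-coupled receptor known from the oocyte, with no accepted ligand. P2ry12 encodes an ADP receptor that couples to Gi, lowers cyclic AMP, and is known from platelets and microglia. Pla2g4c encodes group IVC cytosolic phospholipase A2, a calcium-independent enzyme that releases fatty acids from membrane phospholipids. Fyb encodes ADAP, an adaptor of T cells, myeloid cells and platelets that links receptor signals to integrins and actin.

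The loci are given on mm10 with GENCODE M21. Gpr149 lies on the minus strand at chr3:62529077-62605140 with 2 annotated transcripts. P2ry12 lies on the minus strand at chr3:59216272-59262871 with 5 transcripts, 3.27 Mb from Gpr149 and wholly inside Med12l, a Mediator subunit gene on the opposite strand, with which 9 exonic bases overlap. Pla2g4c lies on the plus strand at chr7:13324655-13360672 with 4 transcripts. Fyb lies on the plus strand at chr15:6522853-6663313 with 10 transcripts and holds the processed pseudogene Gm7666.

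Sequence shared with other transcripts bears on the Fyb count. Of the 5375 stretches of 50 bases in Fyb transcripts, 290 (5.40%) were also found on the same strand of other genes, and all 290 were in Phb, which encodes the mitochondrial protein prohibitin. The same share was 0.260% for Gpr149 and 3.14% for Pla2g4c, of which 89 of 116 stretches were in the pseudogene Pla2g4c-ps, and no stretch of P2ry12 was shared. Of the 290 Fyb stretches, 182 were also in Gm7666, and 93.5% of the stretches of Gm7666 were in Phb. The source of the Fyb overlap was exon 1 of Fyb-206, a noncoding processed transcript of 569 bases. This exon, at chr15:6654511-6654849, was identical to Phb-204 over its whole length of 339 bases. The stretch of the exon that matches the end of the Phb coding sequence, chr15:6654511-6654741 on the plus strand of mm10, is shown. It also lies in Gm7666, so reads wholly within it cannot be told apart between Fyb, Phb and Gm7666. Its capitals mark the stop codon of Phb.
Fyb-206 exon 1: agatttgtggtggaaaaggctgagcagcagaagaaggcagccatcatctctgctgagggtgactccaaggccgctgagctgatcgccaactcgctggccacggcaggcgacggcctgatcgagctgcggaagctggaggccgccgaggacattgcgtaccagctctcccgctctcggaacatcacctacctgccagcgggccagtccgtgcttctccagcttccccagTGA

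RefSeq promoter windows (GRCm38.p6, 250 bases before to 50 after a start site) existed for 3 of the 4 genes, P2ry12, Pla2g4c and Fyb. They were searched on both strands for the TATA box TATAAA, the NF-Y motif CCAAT, the GC box GGGCGG and the AP-1 motif TGANTCA, and only CCAAT was found, so no match overlapped another motif. It began 52 bases before the Fyb start, 31 bases after the P2ry12 start, and 232 and 23 bases before the first of the Pla2g4c starts, with no match at the other Pla2g4c start. CCAAT was in 37.4% of all 32851 windows, TATAAA in 13.6%, GGGCGG in 35.7% and TGANTCA in 7.81%, so the matches are a description of these windows. The parts upstream of annotated UTRs are shown for Fyb (chr15:6579597-6579846, plus strand) and for one start of Pla2g4c (chr7:13325417-13325628, plus strand), to set a gene that was within 2-fold in 4N cells after CYC065 beside one that was lower, with CCAAT in capitals.
Fyb: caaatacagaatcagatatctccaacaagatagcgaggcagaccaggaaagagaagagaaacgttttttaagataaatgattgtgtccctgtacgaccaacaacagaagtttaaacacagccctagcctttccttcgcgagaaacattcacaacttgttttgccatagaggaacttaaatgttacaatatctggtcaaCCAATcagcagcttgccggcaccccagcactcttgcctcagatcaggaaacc
Pla2g4c: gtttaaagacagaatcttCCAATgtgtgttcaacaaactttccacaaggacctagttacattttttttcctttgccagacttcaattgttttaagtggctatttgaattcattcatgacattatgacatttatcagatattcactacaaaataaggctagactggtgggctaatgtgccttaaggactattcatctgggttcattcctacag

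Gpr149, the orphan receptor, was lower after CYC065 in all 3 populations, by 9.96-fold to 29.1-fold. The 3 columns held 110, 106 and 80 counts in vehicle 2N cells, 100, 68 and 84 in vehicle 4N cells, and 43, 56 and 67 in vehicle unsorted cells. After CYC065 they held 5, 4 and 12 counts in 2N cells, 3, 3 and 4 in 4N cells, and 7, 5 and 4 in unsorted cells. Every vehicle column was above every CYC065 column. The columns of a condition are parts of the same library, so their separation is no replicate check and adds little to the summed ratio. The share of all genes whose columns separate in this way was not determined. The same limits apply to the column comparisons of the other genes below. The log2 ratio of CYC065 to vehicle was -3.87 in 2N cells (95% counting interval -4.59 to -3.24), -4.86 in 4N cells (-5.94 to -3.96) and -3.32 in unsorted cells (-4.16 to -2.57). Without replicate 3 the ratio in 2N cells was -4.63.

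P2ry12, the ADP receptor, was also lower in all 3 populations, most deeply in 4N cells. Its columns held 33, 40 and 35 counts in vehicle 2N cells, 58, 50 and 64 in vehicle 4N cells, and 12, 11 and 10 in vehicle unsorted cells. After CYC065 they held 9, 6 and 5 counts in 2N cells, 3, 2 and 2 in 4N cells, and 3, 0 and 0 in unsorted cells. Within each population the vehicle columns lay above the CYC065 columns, and the vehicle unsorted columns lay close above CYC065 2N columns. The log2 ratio was -2.49 in 2N cells (-3.26 to -1.79), -4.83 in 4N cells (-6.16 to -3.75) and -3.40 in unsorted cells (-5.75 to -1.73), the last from 3 counts in CYC065 cells. Without 1 column the ratio in unsorted cells lay between -2.87 and -2.75, the latter without replicate 1, which held all 3 counts, so that it is set by the floor of 3 counts.

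Pla2g4c, the phospholipase, was lower by 15.7-fold in 2N cells and 5.99-fold in 4N cells. Its columns held 51, 52 and 48 counts in vehicle 2N cells, 26, 35 and 22 in vehicle 4N cells, and 45, 33 and 44 in vehicle unsorted cells. After CYC065 they held 4, 4 and 2 counts in 2N cells, 4, 7 and 5 in 4N cells, and 2, 1 and 0 in unsorted cells. No CYC065 column reached a vehicle column. The log2 ratio was -3.97 in 2N cells (-5.06 to -3.06), -2.58 in 4N cells (-3.46 to -1.80) and -5.29 in unsorted cells (-7.59 to -3.71), the last from 3 counts in CYC065 cells. In unsorted cells it was -6.21 without replicate 1 and -4.63 without replicate 3, and -4.59 with a prior count of 2. The value without replicate 1 rests on 1 count in CYC065 cells, which was not raised to 3, as only counts of 0 were raised in these ratios.

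Fyb, the adaptor, was chosen for its low level in vehicle 4N cells and did not follow the other genes. It was lower past 2-fold after CYC065 in 2N and unsorted cells and within 2-fold in 4N cells. Its expected counts, which were fractional, were 102, 84.9 and 133 in vehicle 2N cells, 12.9, 20.3 and 8 in vehicle 4N cells, and 47.1, 31.1 and 49.1 in vehicle unsorted cells. After CYC065 they were 55.0, 50.3 and 28.1 in 2N cells, 7, 42.4 and 41.5 in 4N cells, and 18.4, 20.8 and 8 in unsorted cells. Vehicle 2N columns were above all others, and the vehicle 4N and CYC065 4N columns overlapped. The log2 ratio of CYC065 to vehicle was -1.32 in 2N cells (-1.63 to -1.03), 0.94 in 4N cells (0.40 to 1.51) and -1.38 in unsorted cells (-1.89 to -0.88). Leaving out 1 column moved the ratio in 2N cells to between -1.55 and -0.88 and that in unsorted cells to between -1.82 and -0.93, so neither stayed past 2-fold in every case. Without replicate 3 the ratio was -0.88 in 2N cells, 0.38 in 4N cells and -0.93 in unsorted cells. With scaling by library size alone the ratio in 4N cells was 1.09.

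**Figure D1:**
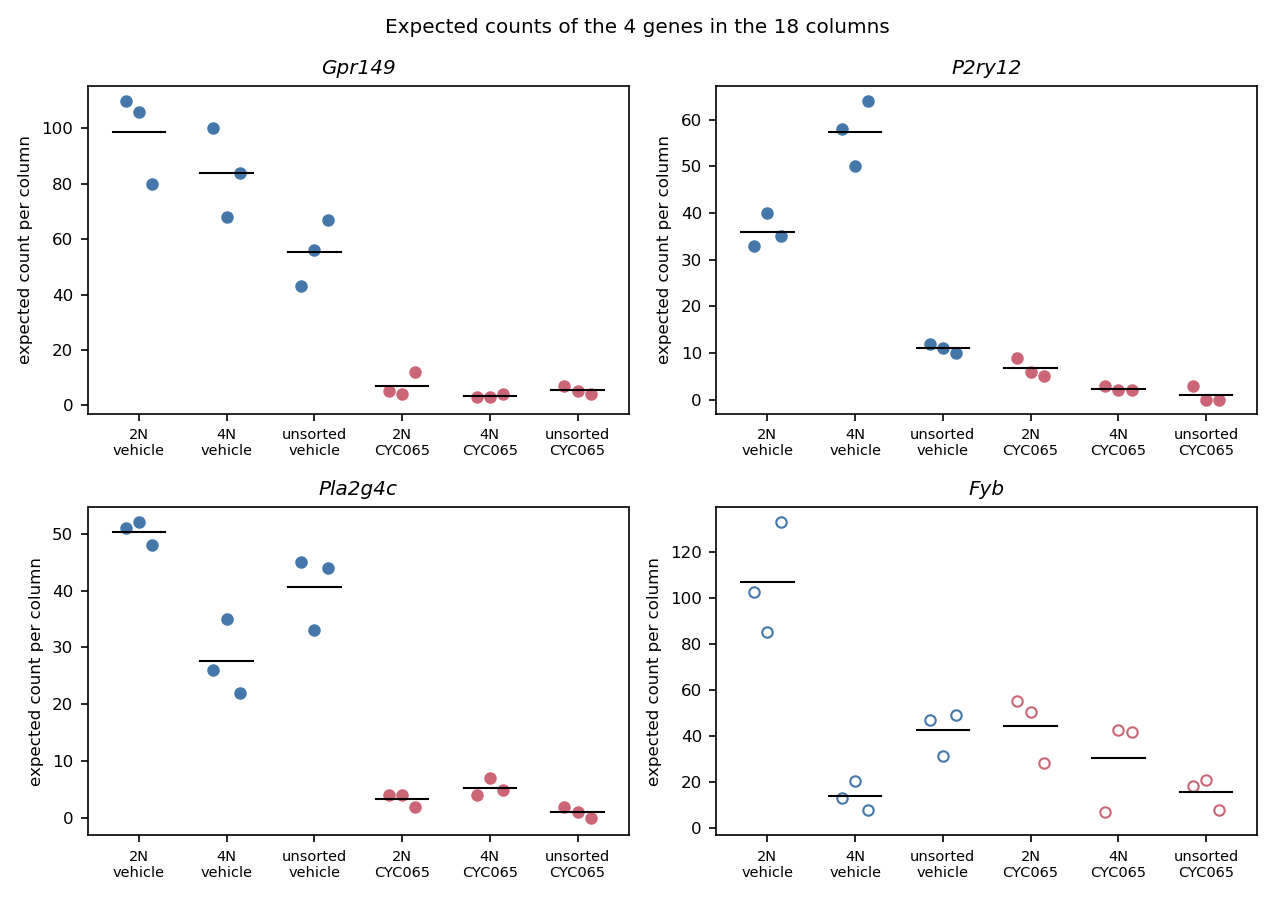
Expected counts (vertical axes) of each gene in the 3 columns of each condition (horizontal axes), with vehicle in blue, CYC065 in red, a black line at the mean of the columns, and open points where counts were fractional. The CYC065 columns of Gpr149 reach 12 counts at most and its vehicle columns start at 43, whereas the Fyb columns of vehicle and CYC065 4N cells overlap.

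The columns of Fyb were also more scattered than those of the other genes, and genes with fractional counts were scattered likewise, since their chi-square per degree of freedom was between 4.36 and 7.60. Their variance-to-mean ratio had a median of 3.80 over the 6 conditions (2.30 to 13.4), against 2.65 for Gpr149, 0.506 for P2ry12 and 0.719 for Pla2g4c, where counting noise alone gives a value near 1. The interval of a Fyb ratio is therefore too narrow. Since the Gpr149 median was also above 1, its intervals may be too narrow as well. Without replicate 3 the Gpr149 ratio in 2N cells, -4.63, lay outside its interval of -4.59 to -3.24. Phb, from whose transcripts reads can be assigned to Fyb, had 11195 counts in vehicle 2N cells, 11528 in vehicle 4N cells and 7410 in vehicle unsorted cells. After CYC065 Phb had 6091 counts in 2N cells, 7863 in 4N cells and 4368 in unsorted cells. The Fyb count was between 0.357% and 2.86% of the Phb count. Phb had a log2 ratio of -0.94, -0.76 and -0.70 after CYC065 in 2N, 4N and unsorted cells and of -0.02 for vehicle 4N over 2N cells, where Fyb had -3.03. Gm7666 had 53 to 122 counts and log2 ratios of -1.11, -0.80 and -1.01 after CYC065 in 2N, 4N and unsorted cells. The part of Phb and Gm7666 reads in the Fyb values was not tested.

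Per kilobase of exon, the levels of the 4 genes were compared within each condition. In vehicle 2N cells the level was 1.23 CPM per kb for Gpr149, 1.06 for Fyb, 0.755 for P2ry12 and 0.717 for Pla2g4c. In vehicle 4N cells it was 1.15 for P2ry12, 1.00 for Gpr149, 0.378 for Pla2g4c and 0.130 for Fyb. In vehicle unsorted cells it was 0.675 for Gpr149, 0.568 for Pla2g4c, 0.412 for Fyb and 0.226 for P2ry12. The order of the genes thus differed between the vehicle conditions, with Fyb lowest in 4N cells and P2ry12 lowest in unsorted cells. After CYC065 the lowest level of each gene was 0.0344 CPM per kb for Gpr149 (4N cells), 0.0214 for P2ry12 and 0.0145 for Pla2g4c (both unsorted cells), and 0.159 for Fyb (unsorted cells).

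In order of level, Gpr149 went from 5.27 CPM (95% counting interval 4.69 to 5.91) in vehicle 2N cells through 4.30 in vehicle 4N and 2.90 in vehicle unsorted cells to 0.359, 0.291 and 0.148 in CYC065 2N, unsorted and 4N cells. Neighbouring CYC065 conditions did not differ beyond their counting interval. P2ry12 was highest in vehicle 4N cells at 2.93 CPM, followed by 1.92 in vehicle 2N, 0.576 in vehicle unsorted, 0.342 in CYC065 2N, 0.103 in CYC065 4N and 0.0545 in CYC065 unsorted cells. The steps from vehicle unsorted to CYC065 2N cells and from CYC065 4N to CYC065 unsorted cells were within their intervals. Pla2g4c was highest in vehicle 2N cells at 2.69 CPM, then 2.13 in vehicle unsorted, 1.42 in vehicle 4N, 0.236 in CYC065 4N, 0.171 in CYC065 2N and 0.0545 in CYC065 unsorted cells. Vehicle 2N and unsorted cells did not differ beyond the interval for Pla2g4c, nor did neighbouring CYC065 conditions. Fyb was highest in vehicle 2N cells at 5.70 CPM, then 2.28 in CYC065 2N, 2.22 in vehicle unsorted, 1.34 in CYC065 4N, 0.854 in CYC065 unsorted and 0.699 in vehicle 4N cells, where the steps from CYC065 2N to vehicle unsorted and from CYC065 unsorted to vehicle 4N cells were within the interval.

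Among all genes, a gene was counted as lower or higher past 2-fold if it had at least 30 summed counts in 1 of the libraries compared, with counts under 3 raised to 3. In 2N cells 13.3% of 14093 genes were lower and 14.9% higher, and all 4 genes were lower. In 4N cells 11.4% of 14183 genes were lower and 14.2% higher, and 3 of the 4 were lower. In unsorted cells 14% of 14084 genes were lower and 11.8% higher, and all 4 were lower. Gpr149, P2ry12 and Pla2g4c were lower in all 3 populations, as were 7.02% of 13539 genes, and 6.43% were higher in all 3. Since these contrasts chose the genes, nothing is read from the counts. The median log2 ratio of all genes tested was -0.07 in 2N, -0.03 in 4N and -0.07 in unsorted cells, and that of the 4 genes was -3.18, -3.71 and -3.36.

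Ranked by depth of decrease over genes whose higher library reached 100 counts, Pla2g4c was rank 2 and Gpr149 rank 3 of 11992 genes in 2N cells. P2ry12 was rank 61 in 2N cells. In 4N cells Gpr149 was rank 2 and P2ry12 rank 3 of 12074, and in unsorted cells Pla2g4c was rank 2 and Gpr149 rank 21 of 12009. Pla2g4c in 4N cells and P2ry12 in unsorted cells had fewer counts and no rank. Fyb was rank 880 in 2N cells and rank 879 in unsorted cells, well inside the distribution.

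**Figure D2:**
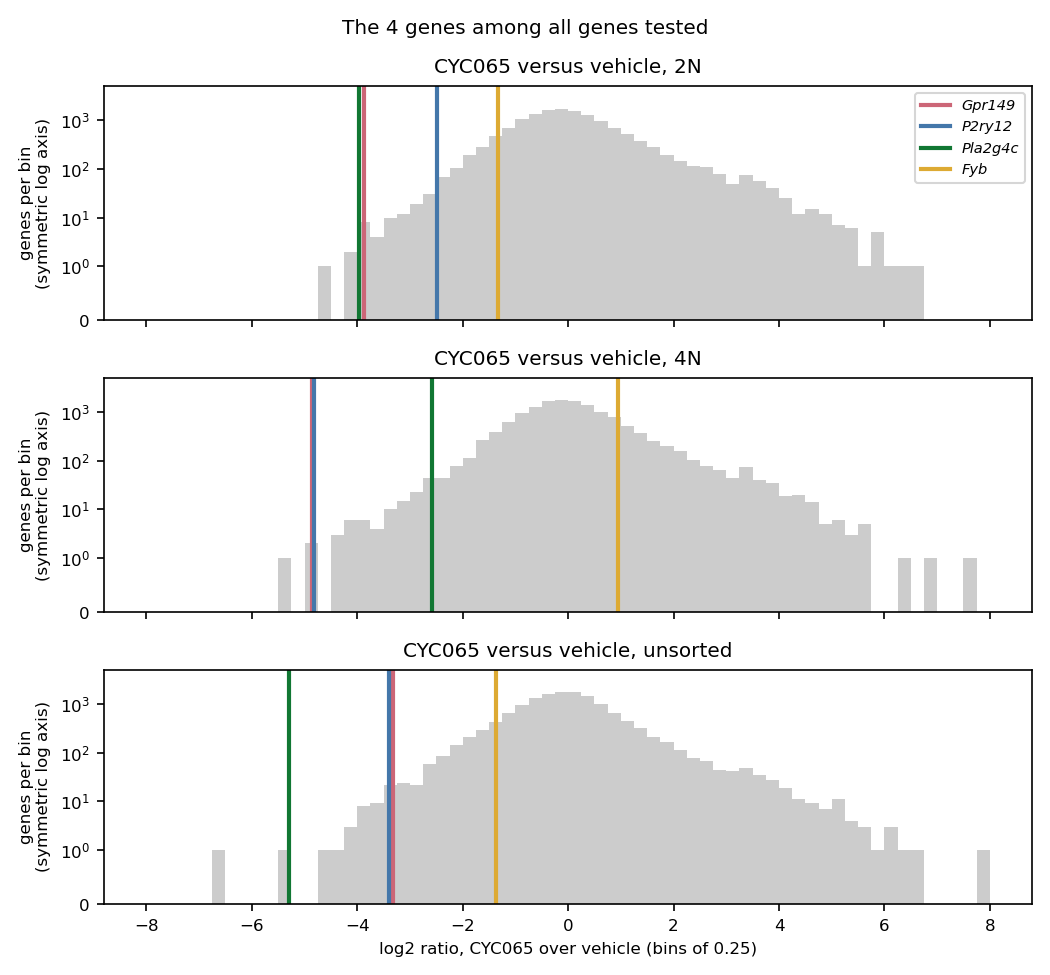
Number of genes (vertical axes, symmetric log scale) by log2 ratio of CYC065 to vehicle (horizontal axis, bins of 0.25) in 2N, 4N and unsorted cells, with coloured lines at the 4 genes. Gpr149 and Pla2g4c lie in the far left tail in 2N cells at -3.87 and -3.97, Gpr149 and P2ry12 in 4N cells at -4.86 and -4.83, and Fyb lies right of 0 in 4N cells at 0.94.

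As the choice of genes favoured, 4N and 2N vehicle cells differed less than the treatments for Gpr149, P2ry12 and Pla2g4c, and more for Fyb. In those cells the log2 ratio of 4N to 2N was -0.29 for Gpr149 (-0.54 to -0.05), 0.61 for P2ry12 (0.25 to 0.97), -0.92 for Pla2g4c (-1.33 to -0.53) and -3.03 for Fyb (-3.53 to -2.55). Fyb was 8.15-fold lower in 4N cells and rank 2 of 11560 genes, the value for which it was picked. Of the 4 genes 1 was lower past 2-fold, against 1.74% of 13364 genes. In these vehicle cells all 3 columns of P2ry12 were higher in 4N than in 2N cells and all 3 columns of Pla2g4c were lower, whereas the Gpr149 columns overlapped.

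After CYC065 only Fyb kept enough counts for the 30-count filter between 4N and 2N cells, where 2.06% of 14183 genes were lower past 2-fold and Fyb, at -0.76 (-1.16 to -0.36), was not. Without 1 column this Fyb ratio lay between -1.31 and -0.11. The other genes, below the filter, had ratios of -1.28 for Gpr149 (-2.53 to -0.13), -1.73 for P2ry12 (-3.21 to -0.43) and 0.47 for Pla2g4c (-0.76 to 1.77). All 3 P2ry12 columns were lower in 4N than in 2N cells after CYC065, against the order in vehicle cells. The share of all genes with such a change of order was not determined.

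**Figure D3:**
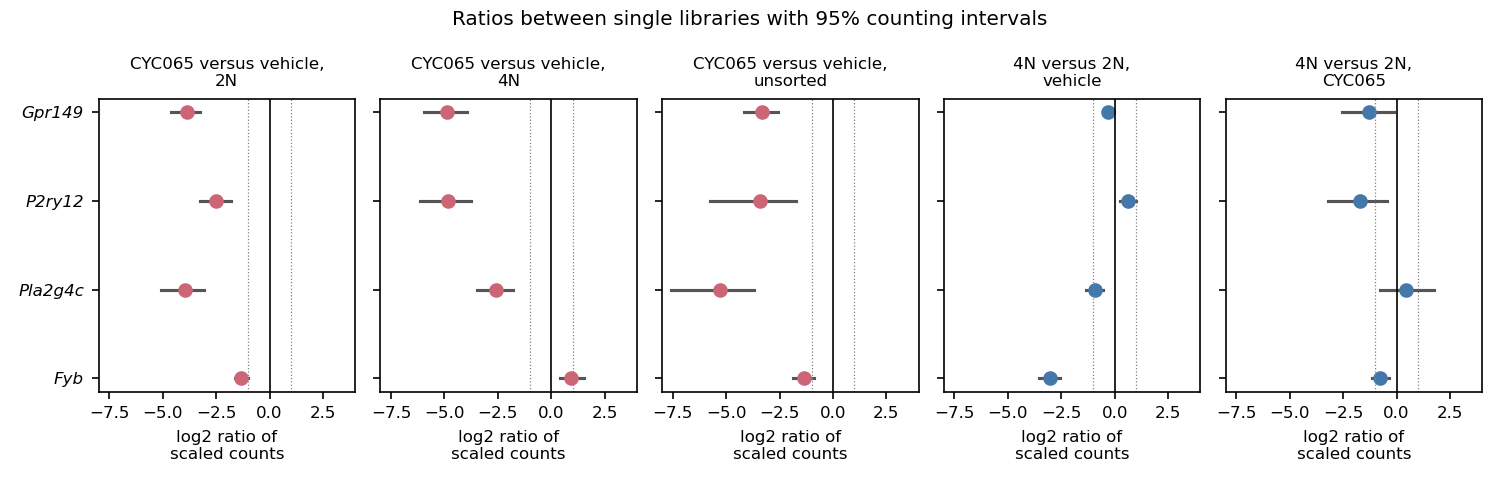
Log2 ratio of scaled summed counts (horizontal axes) of each gene in the 5 comparisons, with lines for the 95% counting interval and dotted lines at 2-fold. Gpr149, P2ry12 and Pla2g4c lie left of the lower dotted line in the first 3 panels, and Fyb does so for vehicle 4N over 2N cells at -3.03.

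The difference between the 4N over 2N ratios, CYC065 minus vehicle, was -2.34 for P2ry12 on the log2 scale (counting SE 0.66, interval -3.63 to -1.05), -0.99 for Gpr149 (SE 0.57, -2.10 to 0.12), 1.39 for Pla2g4c (SE 0.61, 0.19 to 2.59) and 2.27 for Fyb (SE 0.31, 1.66 to 2.87). The Gpr149 interval held 0. These differences use the counts on which the genes were chosen, so they are a description. With single libraries they have no replicate check.

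Unsorted vehicle cells were collected from the same culture conditions as the sorted ones, and Gpr149 and P2ry12 were lower in them than in both sorted populations. Gpr149 in unsorted cells had a log2 ratio of -0.86 (-1.15 to -0.58) to 2N cells and -0.57 (-0.86 to -0.28) to 4N cells. P2ry12 had -1.74 (-2.35 to -1.17) and -2.35 (-2.93 to -1.81). A level below both sorted populations was found for 44.9% of 13810 genes, so that 2 of 4 is near the background. Pla2g4c and Fyb lay between the sorted populations in vehicle cells. After CYC065, unsorted cells had Fyb ratios of -1.41 (-1.93 to -0.92) to 2N and -0.65 (-1.19 to -0.13) to 4N cells. Those of P2ry12 were -2.65 (-5.04 to -0.90) and -0.92 (-3.51 to 1.21), and of Pla2g4c -1.65 (-4.15 to 0.31) and -2.12 (-4.54 to -0.31), from 3 unsorted counts each. Both Gpr149 intervals held 0. The share of all genes below both sorted populations after CYC065 was not determined.

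The genes around P2ry12 in the nucleotide pathway moved in more than one direction. These lists of related genes were compiled with earlier results known and are described by counts, beside the background shares above. Of 15 purinergic receptors 5 passed the filter, and P2ry12 and P2ry2, a receptor for ATP and UTP, were lower in all 3 populations, with log2 ratios of -1.01, -1.01 and -2.04 in 2N, 4N and unsorted cells for P2ry2. P2ry2 was within 2-fold in 2N cells with DESeq2 size factors (-0.98) and in 2N and 4N cells with library size alone (both -0.87). Without P2ry12, 1, 2 and 2 of 4 tested receptors were lower, against 13.3%, 11.4% and 14% of all genes. P2rx3, an ATP-gated channel, was lower past 2-fold in 4N and unsorted cells at -1.17 and -1.38. P2rx4, another such channel, had 1.42, 0.78 and 0.86, past 2-fold in 2N cells. P2rx7 had -0.53, -0.63 and -0.49.

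Of 9 ectonucleotidases, enzymes that break down extracellular nucleotides, 6 passed the filter in 2N, 5 in 4N and 6 in unsorted cells. Among them 4, 4 and 5 were higher past 2-fold, against 14.9%, 14.2% and 11.8% of all genes, and none was lower. Entpd2, Entpd3 (2N cells) and Alpl (unsorted cells) passed the filter by CYC065 counts alone, so they could not be called lower. With at least 100 counts 2, 3 and 3 were higher. Entpd2, which hydrolyses ATP to ADP, was higher in all 3 populations at 2.97 in 2N, 1.5 in 4N and 4.04 in unsorted cells, from 4 to 15 counts in vehicle libraries. Enpp2, which encodes autotaxin, was higher at 2.14, 1.60 and 2.42. Nt5e, which makes adenosine from AMP, had 0.93, 1.02 and 1.81. The median log2 ratio of those tested was 1.73, 1.06 and 2.23, with the genes that passed by CYC065 counts alone included. Over all genes tested it was -0.07, -0.03 and -0.07.

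Downstream of Gi, 17 of 24 genes passed the filter, with none higher and 2 lower in 2N cells, 2 higher and 1 lower in 4N cells, and 3 higher and 1 lower in unsorted cells. Among all genes 13.3%, 11.4% and 14% were lower and 14.9%, 14.2% and 11.8% higher. Grk6, a kinase that phosphorylates activated receptors, was lower in all 3 populations at -1.75, -1.21 and -1.55. The Gi subunit gene Gnai2 had 0.53, 0.38 and -0.12, within 2-fold.

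Pla2g4c stood apart in its family, which follows from its choice for a deep decrease. Of 21 phospholipase A2 genes 9 passed the filter, and Pla2g4c was the only one lower past 2-fold in 2N and in unsorted cells. Without it 0, 1 and 0 of 8 were lower in 2N, 4N and unsorted cells, against 13.3%, 11.4% and 14% of all genes. Pla2g5, a secreted enzyme, was lower in 4N cells at -1.04 (-0.90, within 2-fold, with library size alone), and Pla2g15, the lysosomal enzyme, was higher in unsorted cells at 1.14. The calcium-dependent enzyme gene Pla2g4a, with 5213 to 7983 counts, had 0.26, 0.11 and 0.09, and Pla2g4b had -0.12, 0.07 and -0.10. Of 16 eicosanoid synthesis genes 9 passed the filter, with 1 higher and 1 lower in 2N cells and the same counts in 4N cells. In unsorted cells none was higher and 1 was lower. Among all genes 14.9%, 14.2% and 11.8% were higher in 2N, 4N and unsorted cells, beside the lower shares above. Ptgs2, the inducible cyclooxygenase, had -0.20, -0.40 and 0.29. Alox5ap, which presents arachidonic acid to lipoxygenase, was higher in 2N and 4N cells at 3.61 and 2.00. It passed the filter there by its CYC065 counts alone (89 and 97), with 7 and 21 in vehicle.

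In the ADAP module of adaptors, kinases and integrin regulators, 15 of 19 genes passed the filter, with none higher and 3 lower in each population. Fyb itself is among the 3 in 2N and unsorted cells, and without it 2, 3 and 2 of 14 were lower in 2N, 4N and unsorted cells, against 13.3%, 11.4% and 14% of all genes. With library size alone 1 was lower in 4N cells, Fyb2, and 1 higher, Fyb. Fyb2, a paralog of Fyb, was lower in all 3 at -1.66, -1.63 and -2.16. Itgb2, the leukocyte integrin subunit, had -0.63, -1.08 and -1.02, where the call in unsorted cells was lost with DESeq2 size factors, and Apbb1ip, which encodes the Rap1 effector RIAM, had -1.52, -0.79 and -0.65. Skap2, an ADAP partner, had 0.79, 0.62 and 0.55, and Fyn had 0.69, 0.75 and 0.49.

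Of 69 orphan receptors named Gpr, 24 passed the filter in 2N cells with 2 higher and 6 lower, 26 in 4N cells with 5 higher and 6 lower, and 22 in unsorted cells with 3 higher and 2 lower. Without Gpr149, 5 of 23, 5 of 25 and 1 of 21 were lower, against 13.3%, 11.4% and 14% of all genes. The share of all genes that were higher was 14.9%, 14.2% and 11.8%. Gpr149 and Gpr35 were lower in all 3 populations, the latter at -1.32, -1.55 and -1.64. Gpr146 (2.7, 2.51 and 2.02) and Gpr153 (1.29, 1.14 and 1.15) were higher in all 3.

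**Figure D4:**
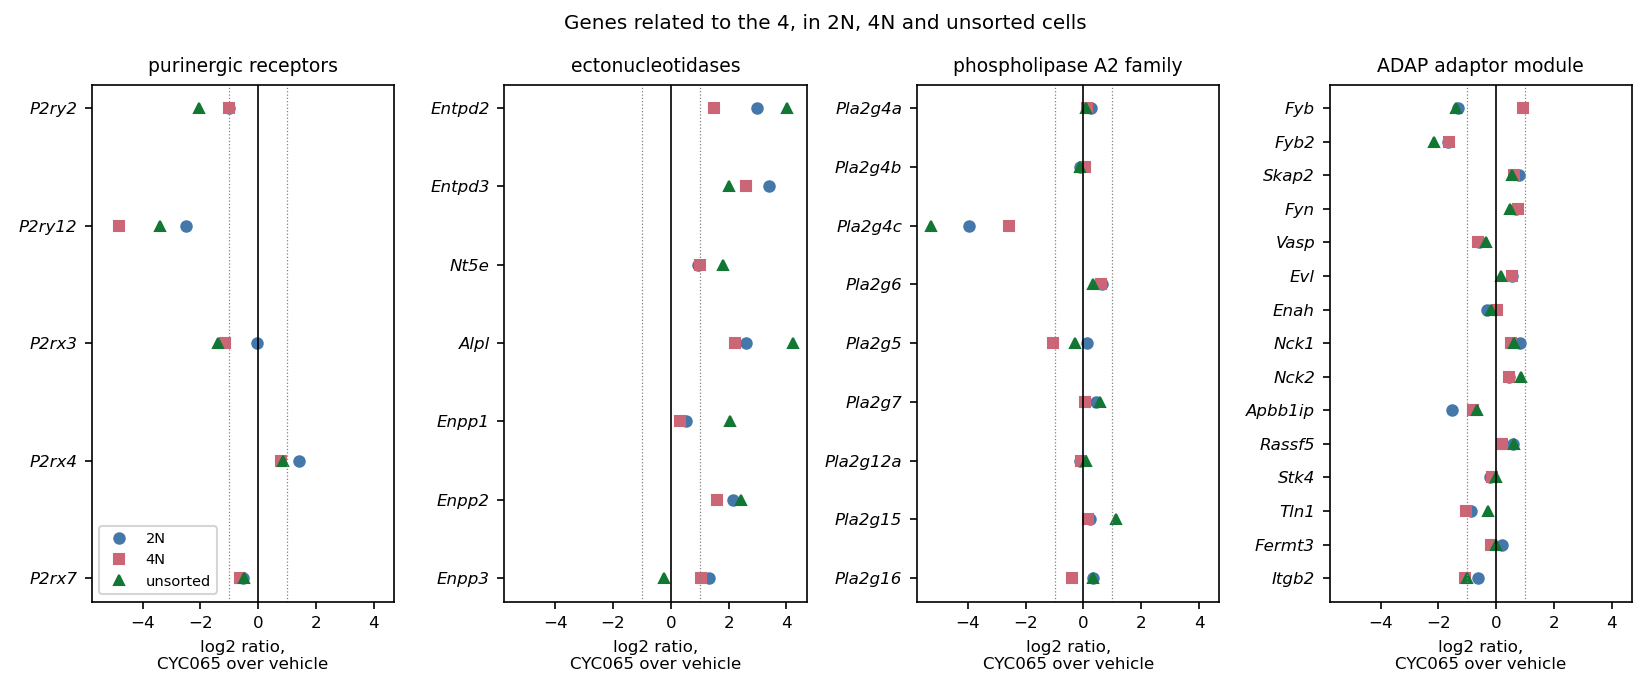
Log2 ratio of CYC065 to vehicle (horizontal axes) for purinergic receptors, ectonucleotidases, phospholipase A2 genes and ADAP module genes (vertical axes) with at least 30 counts in any library. Populations are 2N (blue circles), 4N (red squares) and unsorted cells (green triangles), with dotted lines at 2-fold. Also shown are points below the filter in their comparison: Entpd3 in 4N and unsorted cells and Alpl in 2N and 4N cells. P2ry12 and Pla2g4c, chosen for deep decreases, lie left of their families. The ectonucleotidases lie mostly right of 0, with Enpp3 in unsorted cells at -0.23 as the exception.

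The genes with the most similar pattern were ranked among 12387 genes by the root-mean-square difference of centred log2 levels over the 6 conditions, which is a description of 6 libraries. The nearest to Gpr149 were Lgr6, a receptor for R-spondins (0.23), Gm45716 (0.36), the collagen gene Col5a3 (0.45), 2310033P09Rik (0.56) and the kallikrein gene Klk10 (0.62), and the Gm45716 counts were fractional. The nearest to P2ry12 were Gm36377 (0.50), Baalc (0.55), the mannose receptor gene Mrc1 (0.57), Serpinb2 (0.57) and Mirt1 (0.62). The nearest to Pla2g4c were the troponin gene Tnnt2 (0.47), Dlk2 (0.52), the collagen gene Col17a1 (0.53), 4930478M13Rik (0.56) and Wincr1 (0.58). The nearest to Fyb were Gm45205 (0.46), Eif4ebp3 (0.59), Mapkapk3 (0.60), Gm8226 (0.67) and Gm12338 (0.70), of which Eif4ebp3, Gm8226 and Gm12338 had fractional counts. No member was among the nearest of another.

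Within 500 kb, no tested gene near Gpr149, P2ry12 or Fyb was lower past 2-fold in all 3 populations. Near Gpr149, 1 of 7 annotated genes passed the filter in all 3 comparisons. Near P2ry12, 1 of 26 did so, and this was Med12l, with log2 ratios of 3.43, 0.69 and 1.81 in 2N, 4N and unsorted cells. Its vehicle libraries held 5, 29 and 24 counts and its CYC065 libraries 56, 54 and 81. Med12l passed by the CYC065 counts alone, so it could not be called lower. Near Pla2g4c, 14 of 54 passed and 2, Ube2m and Zswim9, were lower in all 3, against 7.02% of all genes. Near Fyb, 5 of 13 passed, and Dab2 was higher in all 3 at 1.55, 1.19 and 1.04, as were 6.43% of all genes.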

How the data were processed

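RNA from the 6 conditions was made into stranded libraries after rRNA depletion and sequenced as paired ends. Per the labels and methods, the authors trimmed reads with Cutadapt 1.18, aligned them with STAR 2.7.0f to mm10 with GENCODE M21, and deposited RSEM expected counts per gene, in which reads shared between genes are divided (9.66% of genes had a fractional value). RSEM is version 1.3.1 and bcl2fastq 2.17 in the submitters' processing notes, and other versions stand in the methods. The strand setting of the counting is not given in the sources used here.

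Expected counts were rounded, and the 3 columns of a condition, which share a library number, were summed to 1 library, so no test between conditions was run and ratios are given. Ratios of summed counts scaled by TMM (edgeR 4.0.16) have exact Clopper-Pearson 95% intervals, and CPM have exact Poisson intervals, both for counting error only. Calls are past 2-fold with at least 30 summed counts in 1 library and counts under 3 raised to 3. Transcripts were compared by 50-base stretches on the same strand. The genes, lists and comparisons were chosen with earlier results of these data known. The named genes were the members, list members past the filter and the 5 nearest patterns per member, and examples from lists were chosen after their values were seen. Alternatives were DESeq2 1.42.0 size factors, library size alone, other filters, each column left out, and a replicate block.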

Additional observations from a re-analysis of the deposited data

Results flagged for a closer look

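P2ry12 moved in opposite directions between 4N and 2N cells in the 2 treatments. Every vehicle 4N column was above every vehicle 2N column, and every CYC065 4N column was below every CYC065 2N column, with a difference of the log2 ratios of -2.34 (CYC065 minus vehicle). The columns are parts of 1 library per condition, and the CYC065 4N library held 7 counts. The comparison of CYC065 4N with 2N cells was below the count filter for P2ry12. The difference uses counts on which P2ry12 was chosen, and it was not tested. The share of all genes that change direction in this way was not determined, so how unusual the change is cannot be told.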

How the results depend on the processing

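Of 220 recomputed values of the 4 genes, 212 moved by less than their counting interval, 8 moved further and none reversed. The 8 came from leaving out a column. Without 1 column the log2 ratio of CYC065 to vehicle in 2N cells ranged from -4.63 to -3.53 for Gpr149 and from -1.55 to -0.88 for Fyb, and the Fyb ratio in 4N cells ranged from 0.38 to 1.39. The Fyb ratio of 4N to 2N cells ranged from -3.55 to -2.57 in vehicle and from -1.31 to -0.11 in CYC065 cells, and the difference between them from 1.26 to 2.92. The cause was not tested.

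With no filter on low counts the share of genes lower past 2-fold in 4N against 2N cells was 4.14% in vehicle and 4.80% in CYC065 cells, and with at least 100 counts 0.631% and 0.776%, because other genes were tested. The other 60 of 64 recomputed shares stayed within 1.5 times. Library size alone moved the median log2 ratio of all genes from -0.07 to 0.07 in 2N cells and from -0.03 to 0.11 in 4N cells. Of 126 recomputed counts over the gene lists, 17 moved by over 1.5 times. Of the 5 nearest patterns, 5, 4, 3 and 5 were shared under a prior count of 2 for Gpr149, P2ry12, Pla2g4c and Fyb.

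A replicate block in the edgeR fit to the columns changed the log2 ratios of the 4 genes by at most 0.0078, for example to -3.80 for Gpr149 in 2N cells, and the replicate numbers name parts of 1 library, so they pair no samples. Depth limits some CYC065 values: P2ry12 and Pla2g4c each had 3 counts in unsorted cells.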
